A study of Homo sapiens with 4 samples.

Results

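Immune checkpoint and natural killer (NK) receptor ligands are surface proteins through which a tumour cell is read by T cells and NK cells. The 10 ligand genes described here (CD274, CD276, CD47, PVR, NECTIN2, MICA, MICB, ULBP2, ULBP3 and RAET1G) were chosen by name as known ligands, with earlier results of these data known, and each was matched by symbol to 1 of the 60683 Ensembl genes measured. RNA was sequenced from HCT116, an established human colorectal carcinoma line, in 2 libraries per group. FOXD2 cells had received a pSin lentivirus that holds the whole FOXD2 coding sequence, and FOXD2 is a transcription factor of the forkhead family. Empty vector cells carried the pSin virus with no insert, and both kinds of cells were stable lines kept under puromycin. The promoter that drives FOXD2, and whether the lines were single clones or pools, are not given in the sources used here. No T or NK cells were part of these cultures per the labels, so the values are transcript levels in the carcinoma cells and not measures of recognition or killing.

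As background, CD274 encodes PD-L1, which engages the inhibitory receptor PD-1 on T cells and is induced by interferon-gamma. CD276 encodes B7-H3, a B7 family relative with no agreed receptor, and CD47 is the "do not eat me" signal read by SIRPA on macrophages. PVR and NECTIN2 are nectin family adhesion proteins that are seen by the activating receptor DNAM-1 (CD226) and the inhibitory receptor TIGIT. MICA, MICB, ULBP2, ULBP3 and RAET1G are distant relatives of MHC class I that are put on the surface of stressed, infected or transformed cells, where the activating receptor NKG2D (KLRK1) on NK and T cells binds them.

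The control regions of the ligands differ, and the stretches in which a searched motif was found are shown here so that each motif named beside a result can be read. The sequences are from RefSeq on GRCh38.p14, where all 10 members had a window of 250 bases before to 50 bases after a start site (11 windows, as CD276 had 2). Positions are counted with the start site at 0. Capitals mark matches, and all are written 5′ to 3′ on the strand of the gene. CD274 is shown for its interferon motifs (chr9:5450292-5450441, plus strand), MICA and MICB for a shared heat shock motif (chr6:31403345-31403494 and chr6:31497895-31498044, both plus strand), and ULBP2 and ULBP3 for an AP-1 motif at the start site (chr6:149941964-149942018, plus strand, and chr6:150069117-150069171, minus strand).
CD274: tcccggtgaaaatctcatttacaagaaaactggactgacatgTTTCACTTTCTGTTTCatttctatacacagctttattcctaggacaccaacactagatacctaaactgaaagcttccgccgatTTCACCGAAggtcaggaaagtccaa
MICA: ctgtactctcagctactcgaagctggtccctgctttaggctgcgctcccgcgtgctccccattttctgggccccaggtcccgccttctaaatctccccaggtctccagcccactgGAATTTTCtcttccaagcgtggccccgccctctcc
MICB: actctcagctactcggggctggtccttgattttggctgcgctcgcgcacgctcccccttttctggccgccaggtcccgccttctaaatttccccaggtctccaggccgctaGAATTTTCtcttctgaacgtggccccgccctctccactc
ULBP2: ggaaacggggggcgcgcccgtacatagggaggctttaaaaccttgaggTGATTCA
ULBP3: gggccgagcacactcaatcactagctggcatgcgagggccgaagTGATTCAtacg

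CD274 held 2 overlapping matches of the interferon-stimulated response element (GAAANNGAAA, read on the opposite strand, from -208 to -199 and from -202 to -193) and 1 match of the gamma-activated sequence GAS (TTCNNNGAA, from -125 to -117). Of all 35116 windows of this length, 3.57% held the first motif and 7.66% the second, on either strand. MICA and MICB each held 1 heat shock element (GAANNTTC, found in 6.77% of windows), at -135 to -128 and at -139 to -132. Their stretches were identical at 128 of 146 aligned bases (87.7%). ULBP2 and ULBP3 each held 1 AP-1 match (TGANTCA, in 7.71% of windows) that spanned or touched the start site. The forkhead core TGTTTAC and the TATA motif TATAAA, which 3.42% and 11.5% of windows held, were found in no member's window on either strand. The windows of CD47, CD276, PVR, NECTIN2 and RAET1G held no match of the 6 motifs. A match is a string of letters and does not show that a factor binds.

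FOXD2 itself was measured as the check of the labels, with reads of the delivered sequence and of the cell's own gene counted together. Its level was 526.5 and 479.1 CPM (counts scaled to library size) in FOXD2 libraries, against 3.50 and 2.78 CPM in empty vector libraries. Total counts were between 14231325 and 15535839 per library, so that 3 counts, the level that a count of 0 allows, equalled 0.193 to 0.211 CPM. This limit covers counting error only. The epithelial markers EPCAM, KRT8, KRT18, KRT19, CDH1 and CDX2 had at least 177 counts in every library, whereas VIL1 had at most 6 and CEACAM5 was at 0 in all 4 libraries. Of 8 T and NK cell markers, PTPRC, CD3D, CD3E and NKG7 were at 0 in every library, and no myeloid marker exceeded 8 counts. The sum of the T and NK list was 2.89 and 2.46 CPM in FOXD2 libraries and 9.23 and 8.74 CPM in empty vector libraries. In that list PRF1, the gene of perforin, singled out after its values were seen, had 23 and 14 counts in FOXD2 libraries and 99 and 101 counts in empty vector libraries (log2 fold change -2.48, SE 0.28, edgeR adjusted p = 4.3e-11). The others above 0 were CD8A, with 10 and 14 counts in FOXD2 libraries and 16 and 9 in empty vector libraries, NCAM1, with 10 and 8 counts in FOXD2 libraries and 14 and 20 in empty vector libraries, and GNLY, with at most 2 counts. Of 6 fibroblast markers COL1A2, DCN and LUM were at 0 in all libraries. COL1A1 was not, at 31.4 and 32.8 CPM in FOXD2 libraries and 9.44 and 10.6 CPM in empty vector libraries.

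The question put to the members was which of these ligand transcripts differed between FOXD2 and empty vector cells. CD274, NECTIN2 and ULBP2 rose, CD276 fell, and CD47, PVR, MICA, MICB and ULBP3 did not pass the test. RAET1G, the scarcest member, had too few counts to be tested. Thus 3 of the 9 members tested were higher and 1 was lower (quasi-likelihood test of edgeR, adjusted p under 0.05 over 14470 genes). Over all genes tested 27.2% were higher and 26.4% lower, 53.5% together, so that 4 of 9 called in either direction is not more than the background. In such bulk samples fewer cells with a transcript and less of it per cell cannot be told apart. The CPM of the groups did not overlap for 7 of the 9 tested members, against 76.1% of all genes tested. Sizes were small: no member reached a 2-fold difference, while 11.6% of all tested genes did. The median absolute log2 fold change was 0.20 over the tested members and 0.32 over all genes tested, and the signed medians were 0.16 and 0.01. The labels do not say whether the libraries of a group came from separate cultures, so these p-values measure the spread between libraries, which may be technical.

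**Figure D1:**
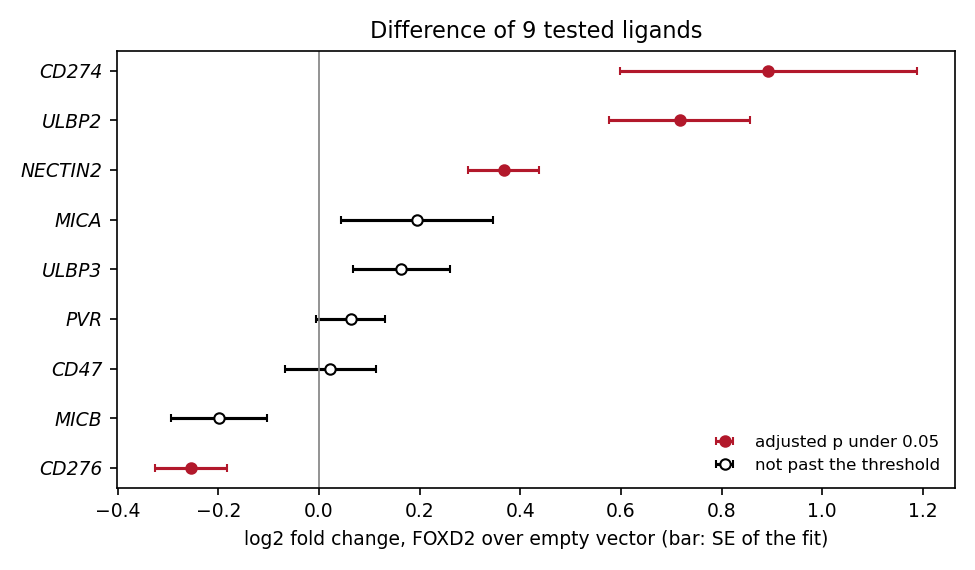
Log2 fold change of FOXD2 over empty vector (horizontal axis) for the 9 tested ligands (rows), with points for the fitted value, bars for its SE and filled red points for edgeR adjusted p under 0.05. CD274, ULBP2 and NECTIN2 lie above 0 and CD276 below it, between 0.89 and -0.25, and the bar of CD274 is the widest.

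The T cell checkpoint ligands went in opposite directions. CD274 (chromosome 9, 5450503 to 5470566, plus strand, GRCh38, GENCODE 29) had 52 and 54 counts in FOXD2 libraries, against 23 and 32 counts in empty vector libraries. In CPM these were 3.34 and 3.69 in FOXD2 cells and 1.65 and 2.12 in empty vector cells, so that both FOXD2 libraries lay above both others at a level that was low throughout. The log2 fold change was 0.89 (SE 0.29, edgeR adjusted p = 0.0089), the highest of the tested members. The call rests on few reads: it was lost with DESeq2 (adjusted p = 0.11), without FOXD2 replicate 2 (edgeR adjusted p = 0.057) and without empty vector replicate 1 (0.093), where the log2 fold change was 0.82 and 0.73.

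CD274 also differed in the transcript length that RSEM assigned to it. The length, averaged over the gene's 5 listed transcripts by their estimated share, was 2781 and 1983 bases in FOXD2 libraries, against 3634 bases in both empty vector libraries. GENCODE 29 gives these transcripts lengths of 442, 601 and 704 bases for those classed as processed transcripts and 3343 and 3644 bases for the protein-coding ones. TPM, which divides by length, was 1.66 and 2.71 in FOXD2 cells and 0.61 and 0.77 in empty vector cells, a ratio of means of 3.17, whereas the ratio of mean CPM was 1.87. How the reads fell on single transcripts was not analysed here, and shares estimated from 23 to 54 counts are imprecise.

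CD276 (chromosome 15, 73683966 to 73714518, plus strand) was the only member that fell. Its level was 78.0 and 78.6 CPM in FOXD2 libraries, against 94.3 and 92.6 CPM in empty vector libraries. The difference, -0.25 on the log2 scale (SE 0.07, edgeR adjusted p = 0.0021), was small, but replicates lay closer together than the groups, and it kept its call in all 15 other settings tried. Per length, CD276 stood at 45.6 ± 1.37 TPM in FOXD2 cells and 54.8 ± 1.02 TPM in empty vector cells (SD, n = 2 each).

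CD47, the macrophage checkpoint, showed no difference that the test could find. Its libraries held 37.2 and 43.6 CPM with FOXD2, against 40.3 and 39.1 CPM with the empty vector. The FOXD2 values lay on both sides of the others, and the difference of 0.02 on the log2 scale (SE 0.09, edgeR adjusted p = 0.85) turned to -0.09 when FOXD2 replicate 2 was left out. An approximate 95% interval, the fitted value ± 1.96 SE, ran from -0.15 to 0.20. QPCTL, the glutaminyl cyclase that modifies CD47 so that SIRPA can bind it, did not pass (0.08 on the log2 scale, SE 0.14, edgeR adjusted p = 0.66).

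The nectin family ligands of DNAM-1 and TIGIT were among the most abundant members, and NECTIN2 rose while PVR did not pass. NECTIN2 (chromosome 19, 44846175 to 44889228, plus strand) had 102.1 and 101.4 CPM in FOXD2 libraries, against 77.7 and 80.1 CPM in empty vector libraries. Its log2 fold change was 0.37 (SE 0.07, edgeR adjusted p = 1.5e-05), with groups far apart relative to their replicates, and the call held in all 15 other settings. PVR, which lies upstream on the same strand (44643798 to 44663583), had 109.7 and 105.1 CPM in FOXD2 libraries, against 101.7 and 103.9 CPM in empty vector libraries. The groups of PVR did not overlap but nearly touched, the log2 fold change was 0.06 (SE 0.07, edgeR adjusted p = 0.45), and its approximate 95% interval ran from -0.07 to 0.20. PVR overlaps CEACAM19 on the same strand, which had 47.0 and 65 counts in FOXD2 libraries and 33 and 33.0 in empty vector libraries, few beside the 1422 to 1708 counts of PVR.

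The NKG2D ligands of the MHC region, MICA and MICB, did not pass in either direction. MICA (chromosome 6, 31399784 to 31415315, plus strand) had 11.5 and 12.0 CPM in FOXD2 libraries, against 11.7 and 8.88 CPM in empty vector libraries, so that the groups overlapped (log2 fold change 0.19, SE 0.15, edgeR adjusted p = 0.285). The value of MICA depended on the empty vector libraries, at 0.41 without replicate 1 and 0.0036 without replicate 2 of that group. MICB, 79.6 kb further along (31494881 to 31511124), had 30.8 and 29.1 CPM in FOXD2 libraries, against 32.7 and 36.1 CPM in empty vector libraries. Its groups did not overlap, with FOXD2 cells lower, but the difference of -0.20 on the log2 scale (SE 0.10) missed the threshold (edgeR adjusted p = 0.074). RSEM reported a posterior SD of 0 for the counts of both genes in every library, so it divided no reads between them despite their likeness. Summed, the pair had 42.3 and 41.1 CPM in FOXD2 libraries and 44.4 and 44.97 CPM in empty vector libraries (log2 fold change -0.10, SE 0.09, edgeR adjusted p = 0.34). MICA is overlapped on its own strand by the long noncoding RNA gene HCP5, which had 173.0 and 174.2 counts in FOXD2 libraries and 52.3 and 44 counts in empty vector libraries. The part of HCP5 in the value of MICA was not tested.

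The NKG2D ligands of the ULBP and RAET1 cluster, which lies on the other arm of chromosome 6, were more variable. ULBP2 (149942000 to 149949235, plus strand) had 17.5 and 15.1 CPM in FOXD2 libraries, against 9.94 CPM in each empty vector library. Both FOXD2 libraries lay well above the others, and the difference of 0.72 on the log2 scale (SE 0.14, edgeR adjusted p = 1.8e-05) kept its call in all 15 other settings of the single gene, between 0.60 and 0.82. ULBP3 (150063150 to 150069095, minus strand) had 35.0 and 31.4 CPM in FOXD2 libraries, against 30.3 and 29.1 CPM in empty vector libraries. Its groups did not overlap, and the difference of 0.16 on the log2 scale (SE 0.10) missed the threshold (edgeR adjusted p = 0.15), except with library totals alone as the scale (adjusted p = 0.045). RAET1G, which encodes ULBP5 (149916878 to 149923121, minus strand), was listed with 10.1 and 8.22 counts in FOXD2 libraries, against 9.0 and 4.0 counts in empty vector libraries. These overlap, and in a fit with no filter on low counts the log2 fold change was 0.38 (SE 0.64, edgeR adjusted p = 0.68 over 24046 genes).

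The rest of the cluster was taken from the list of other NKG2D ligands. RAET1L, which encodes ULBP6, had 9.70 and 8.20 CPM in FOXD2 libraries, against 1.001 and 1.26 CPM in empty vector libraries (log2 fold change 2.97, SE 0.26, edgeR adjusted p = 8.55e-15), a larger difference than that of any member. RAET1E, which encodes ULBP4, had 6.49 and 5.19 CPM in FOXD2 libraries and 2.29 and 3.78 CPM in empty vector libraries (0.94, SE 0.24, edgeR adjusted p = 0.00096). Without empty vector replicate 1 the call of RAET1E was lost (edgeR adjusted p = 0.059). ULBP1 had 11.1 and 10.3 CPM in FOXD2 libraries and 13.9 and 12.9 CPM in empty vector libraries (-0.32, SE 0.14), just short of the threshold (edgeR adjusted p = 0.056, and 0.0496 with RLE factors). Genes of this cluster are alike, and the posterior SD of RSEM reached 6.58% of the count for RAET1L, 3.88% for RAET1E, 6.45% for RAET1G and 0.936% for ULBP2, so their single values are uncertain by about that much from shared reads. The cluster as 1 feature had 80.5 and 70.7 CPM in FOXD2 libraries and 58.0 and 57.2 CPM in empty vector libraries (log2 fold change 0.39, SE 0.08, edgeR adjusted p = 2.8e-05). Along the chromosome the order is RAET1E, RAET1G, ULBP2, ULBP1, RAET1L and ULBP3. RAET1E and ULBP2, both called higher, are parted only by RAET1G, which was too scarce to be tested. ULBP1, which lies between ULBP2 and RAET1L, had lower values in FOXD2 cells but was not called.

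**Figure D2:**
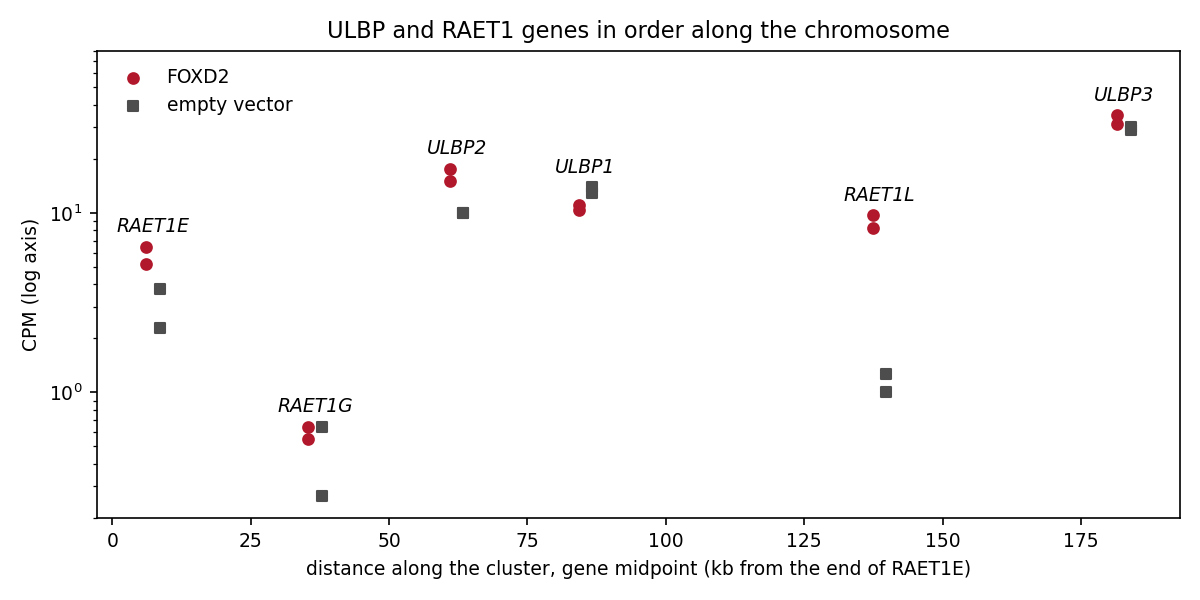
CPM (vertical log axis) of the 6 genes of the ULBP and RAET1 cluster in each library against the distance of the gene's midpoint along the chromosome in kb, with red circles for FOXD2 and grey squares for empty vector. RAET1L shows the widest gap, with FOXD2 libraries at 9.70 and 8.20 CPM and empty vector libraries at 1.001 and 1.26 CPM, while ULBP1 lies lower in FOXD2 libraries.

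Levels of different ligands were compared per length, as TPM. In FOXD2 cells the order was NECTIN2 (72.8 ± 0.226 TPM), CD276 (45.6 ± 1.37), PVR (43.8 ± 0.453), CD47 (24.9 ± 1.76), ULBP2 (18.7 ± 1.69), MICB (18.0 ± 0.318), ULBP3 (14.8 ± 0.933), MICA (13.3 ± 0.587), CD274 (2.19 ± 0.742) and RAET1G (0.98 ± 0.226), each with SD and n = 2. ULBP2 and MICB were the only neighbours in this order whose libraries overlapped. In empty vector cells NECTIN2 (56.7 ± 0.304 TPM) and CD276 (54.8 ± 1.02) headed the order too, followed by PVR (40.7 ± 0.941), CD47 (22.7 ± 0.622), MICB (19.6 ± 0.997), ULBP3 (12.9 ± 0.608), MICA (11.7 ± 2.14), ULBP2 (11.2 ± 0.233), CD274 (0.69 ± 0.113) and RAET1G (0.615 ± 0.375). There ULBP3, MICA and ULBP2 overlapped in turn, as did CD274 and RAET1G. With these lengths ULBP2 was above MICB, ULBP3 and MICA in FOXD2 cells and below all of them in empty vector cells, the only change in the order of means. CD274 was next to last in both groups.

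**Figure D3:**
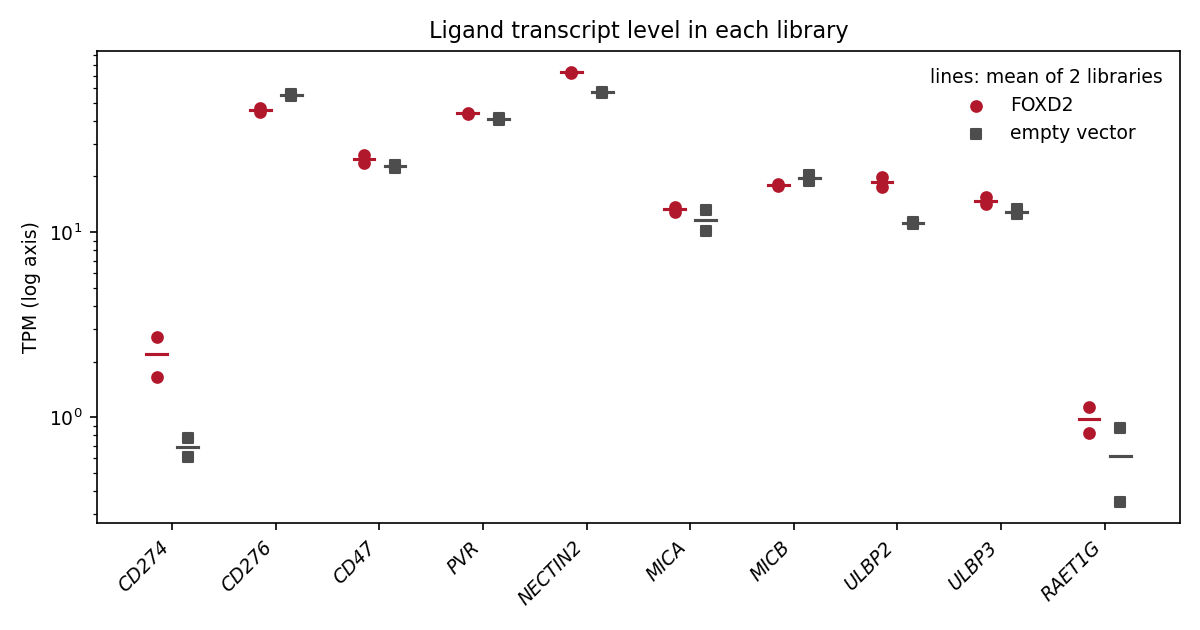
TPM (vertical log axis) of the 10 ligands in each library, with red circles for FOXD2 on the left of each pair, grey squares for empty vector on the right and lines for the mean of 2 libraries. NECTIN2 is highest at 72.9 and 72.6 TPM in FOXD2 cells and 56.5 and 56.9 TPM in empty vector cells, and CD274 and RAET1G lie below 3 TPM in every library.

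Profiles most like those of the members with the largest called differences were found by the distance between log2 CPM in the 4 libraries, each centred on the mean of the empty vector libraries. For CD274 the nearest 3 of the tested genes were ZNF385C (distance 0.01), PAIP1P2 (0.04) and ZNF589 (0.06), of which ZNF589 alone passed the threshold (log2 fold change 0.84, edgeR adjusted p = 1.4e-07). For ULBP2 they were CERS4 (0.04), PTRHD1 (0.04) and KLC3 (0.04), with log2 fold changes of 0.70 to 0.71. With 4 libraries in 2 groups such likeness is mostly the size of the group difference.

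Other ligands of T and NK cell receptors were taken from a list of 33 genes, of which 21 were tested. Of these, 10 were higher and 4 lower, with a median log2 fold change of 0.58 beside 0.01 over all genes. The shares called over all genes, 27.2% higher and 26.4% lower, are the background for these counts. With DESeq2 6 were higher and 3 lower, while over all genes DESeq2 called 2707 higher and 2916 lower, against 3929 and 3816 by edgeR. With at least 1 CPM required in 2 libraries, edgeR called 7 higher and 4 lower, and 3877 and 3754 over all genes. LGALS9, CD70 and CEACAM1 had fewer than 10 counts in both empty vector libraries and passed the count filter through FOXD2 libraries. NECTIN4 had 4 and 11 counts in empty vector libraries, and TNFSF4, called lower, had 11 and 8 in FOXD2 libraries. Calls of these genes are thus partly set by the filter, and the median of 0.58 includes them. Among B7 and other T cell ligands, 6 of 11 tested were higher and 2 lower. ICAM1, the ligand of the integrin LFA-1, had 10.5 and 9.57 CPM in FOXD2 cells and 4.86 and 4.97 CPM in empty vector cells (log2 fold change 1.03, SE 0.18, edgeR adjusted p = 2.8e-06). LGALS3, which encodes galectin-3, a lectin that can bind LAG-3, had 92.8 and 80.9 CPM in FOXD2 cells and 46.3 and 46.7 CPM in empty vector cells (0.90, SE 0.08, edgeR adjusted p = 2.1e-14). The other higher genes, outside the naming rule and given after their values were seen, were the 4-1BB ligand TNFSF9 (0.70), the CD2 ligand CD58 (0.58), and LGALS9 (2.47) and CD70 (1.47), both of which averaged at most 1.07 CPM in FOXD2 cells.

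ICOSLG, the B7 family ligand of the costimulator ICOS, was lower, with 5.72 and 5.81 CPM in FOXD2 cells and 8.30 and 11.9 CPM in empty vector cells (log2 fold change -0.81, SE 0.18, edgeR adjusted p = 0.00015). Its call was lost without empty vector replicate 2 (edgeR adjusted p = 0.065, log2 fold change -0.53) and with limma on log2(TPM + 1) or log2(TPM + 0.1) (adjusted p = 0.076 and 0.094). TNFSF4, the OX40 ligand, had 0.707 and 0.547 CPM in FOXD2 cells and 1.29 and 1.52 CPM in empty vector cells (-1.15, SE 0.44, edgeR adjusted p = 0.025). TNFSF4 lost its call in 6 of 15 other settings, with DESeq2, both TPM fits and without FOXD2 replicate 1 (adjusted p = 0.056), FOXD2 replicate 2 (0.15) or empty vector replicate 2 (0.12). PDCD1LG2, which encodes PD-L2, the second ligand of PD-1, had 3 counts in each FOXD2 library and 0 in both empty vector libraries and was not tested. CD80 and CD86, the ligands of CD28 and CTLA-4, had 0 counts in all libraries.

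The remaining nectins divided. NECTIN3 had 36.6 and 41.2 CPM in FOXD2 cells, against 127.9 and 115.8 CPM in empty vector cells (log2 fold change -1.65, SE 0.08, edgeR adjusted p = 8.4e-25), and NECTIN1 had 38.4 CPM in each FOXD2 library and 54.2 and 51.2 CPM in empty vector libraries (-0.46, SE 0.08, edgeR adjusted p = 7.6e-06). Both are adhesion proteins that pair with other nectins across cell contacts. NECTIN4, at 1.47 ± 0.720 CPM in FOXD2 cells and 0.507 ± 0.313 CPM in empty vector cells (SD, n = 2 each), was higher (1.49, SE 0.49, edgeR adjusted p = 0.0083) and is named here after its values were seen. Of 4 tested ligands of other NK receptors only CEACAM1 was called (1.63, SE 0.50, edgeR adjusted p = 0.0051), from 21 and 18 counts in FOXD2 libraries and 3 and 9 counts in empty vector libraries. It too falls outside the naming rule.

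**Figure D4:**
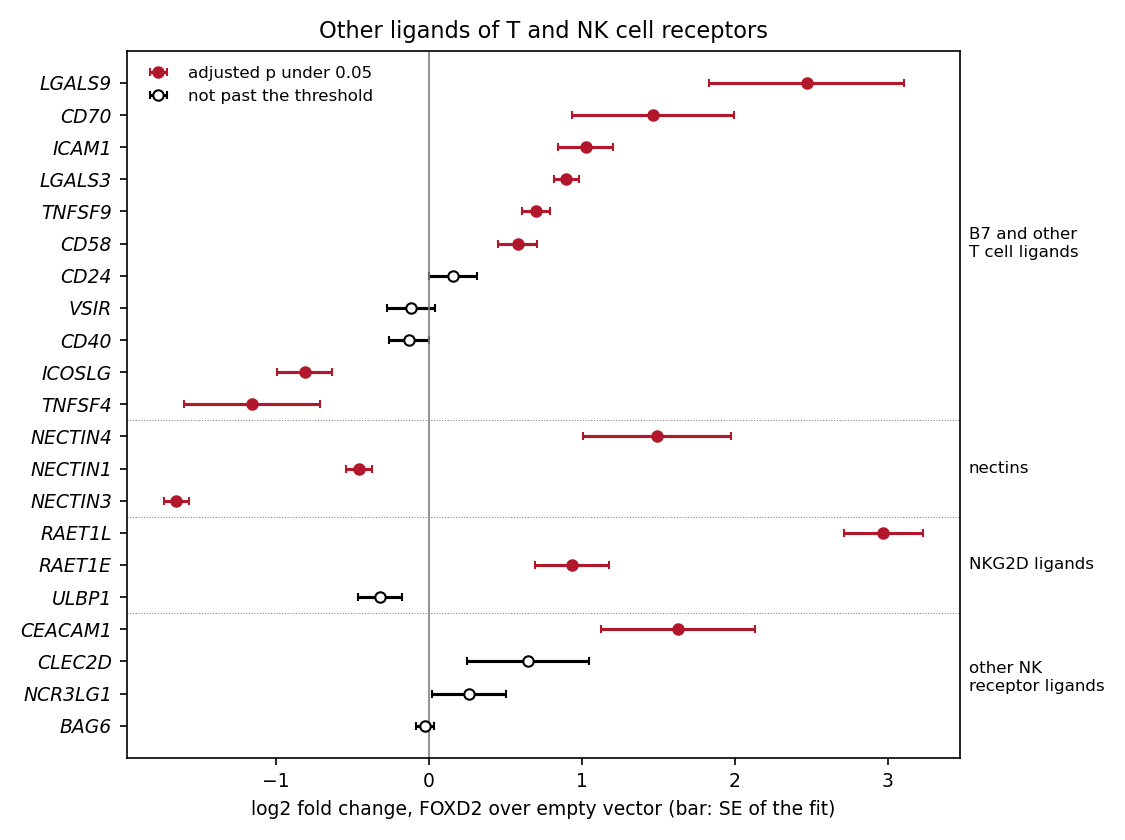
Log2 fold change of FOXD2 over empty vector (horizontal axis) for the 21 tested other ligands in 4 classes, with bars for the SE and filled red points for edgeR adjusted p under 0.05. RAET1L at 2.97 and NECTIN3 at -1.65 are the outermost points, and 10 of 21 are called higher and 4 lower.

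Genes that act on these ligands were counted in 3 lists of 38 genes, all of which were tested. Of them 6 were higher and 21 lower, beside 27.2% and 26.4% over all genes, and with limma on TPM 10 were lower, where calls of lower genes over the whole table were fewer too (2424 on log2(TPM + 1), against 3816 by edgeR). In the interferon-gamma and PD-L1 control list, 5 of 18 were higher and 5 lower (median log2 fold change 0.05). NLRC5, the transactivator of MHC class I genes, had 13.7 and 18.7 CPM in FOXD2 cells and 5.65 and 4.50 CPM in empty vector cells (1.67, SE 0.17, edgeR adjusted p = 2.0e-11). IRF1, the direct activator of the CD274 promoter in the interferon-gamma response, had 10.5 and 11.5 CPM in FOXD2 cells and 13.5 and 13.4 CPM in empty vector cells and did not pass (-0.29, SE 0.14, edgeR adjusted p = 0.078). Whether IRF1 or the other genes of this list bear on the level of CD274 was not tested.

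Genes that act on the PD-L1 protein went both ways. CMTM6, a membrane protein that keeps PD-L1 from being degraded, had 77.3 and 79.4 CPM in FOXD2 cells and 102.0 and 103.3 CPM in empty vector cells (log2 fold change -0.39, SE 0.07, edgeR adjusted p = 5.25e-06). B3GNT3, a glycosyltransferase that acts on PD-L1, had 61.0 and 58.1 CPM in FOXD2 cells and 17.3 and 16.2 CPM in empty vector cells (1.83, SE 0.10, edgeR adjusted p = 1.5e-23). Protein was not measured.

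In the NKG2D ligand control list 11 of 12 genes were lower and 1, the heat shock factor HSF1 (log2 fold change 0.30, named after its value was seen), was higher, with a median of -0.33. HSPA1B, a heat shock chaperone gene and target of HSF1, had 194.8 and 171.0 CPM in FOXD2 cells and 370.6 and 342.3 CPM in empty vector cells (-0.96, SE 0.06, edgeR adjusted p = 1.55e-17). Its near-identical copy HSPA1A (-1.47, SE 0.32, edgeR adjusted p = 9.0e-05) had a posterior SD of up to 53.9% of its count, so its single value is uncertain, and the pair together had 196.7 and 171.9 CPM in FOXD2 cells and 374.3 and 346.4 CPM in empty vector cells. The DNA damage kinases ATM, ATR, CHEK1 and CHEK2, which can raise NKG2D ligands, are in this list, are named after their values were seen, and were among those lower, by 0.23 to 0.47 on the log2 scale. MICA and MICB, whose promoter stretches carry the heat shock motif shown above, did not pass in the same libraries. A link between that motif and their levels was not tested.

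Of 8 genes for shedding and surface modification 5 were lower and none was higher by edgeR (median log2 fold change -0.25). The shares over all genes tested were 26.4% lower and 27.2% higher. The sheddase ADAM10, which cuts MICA and MICB from the surface, had 113.6 and 137.0 CPM in FOXD2 cells and 156.2 and 149.0 CPM in empty vector cells (-0.29, SE 0.07, edgeR adjusted p = 0.0011), and lost its call with limma on log2(TPM + 1) or log2(TPM + 0.1) (adjusted p = 0.079 and 0.080). Leaving out FOXD2 replicate 2 moved it to -0.42 and leaving out FOXD2 replicate 1 to -0.16. ADAM17, a related sheddase, had 54.3 and 48.9 CPM in FOXD2 cells and 56.8 CPM in each empty vector library and did not pass (-0.14, SE 0.08, edgeR adjusted p = 0.15), except without FOXD2 replicate 1 (0.042). GOLM1, a Golgi protein, had 97.6 and 94.5 CPM in FOXD2 cells and 176.4 and 180.2 CPM in empty vector cells (-0.89, SE 0.07, edgeR adjusted p = 2.0e-17). TIMP3, an inhibitor of metalloproteases including ADAM17, had 1.22 and 1.503 CPM in FOXD2 cells and 3.004 and 2.52 CPM in empty vector cells (-1.02, SE 0.34, edgeR adjusted p = 0.0091), a call that was lost with DESeq2, both TPM fits and without FOXD2 replicate 1 (edgeR adjusted p = 0.078) or empty vector replicate 1 (0.066).

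**Figure D5:**
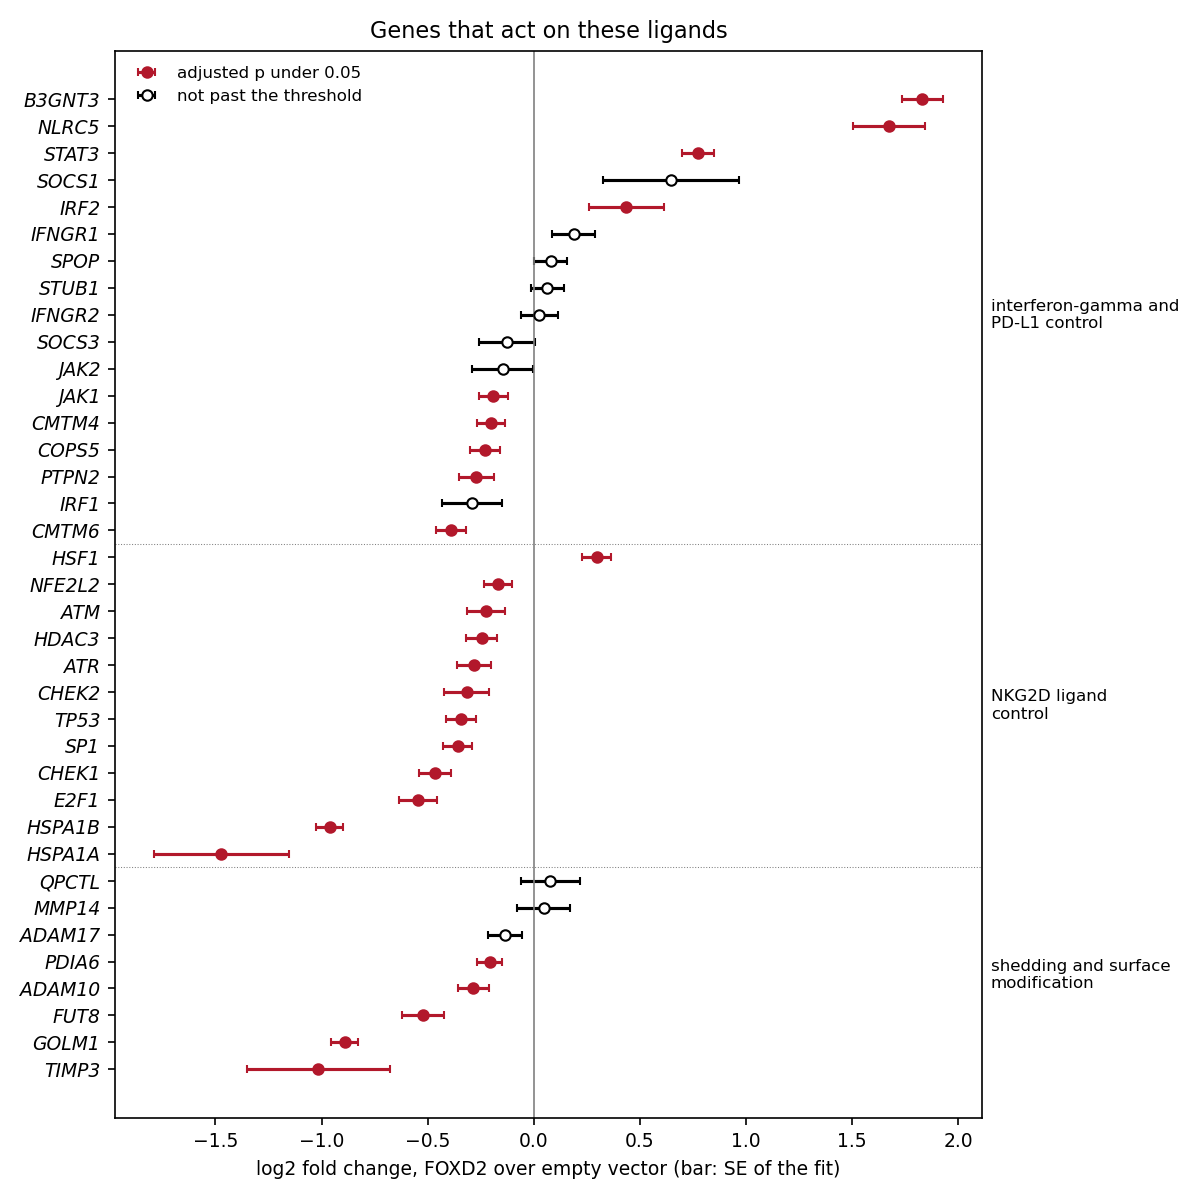
Log2 fold change of FOXD2 over empty vector (horizontal axis) for the genes of these 3 lists that are reported here, with bars for the SE and filled red points for edgeR adjusted p under 0.05. B3GNT3 at 1.83 is the highest and HSPA1A at -1.47 the lowest. In the NKG2D ligand control list 11 of 12 genes are called lower, beside 26.4% of all genes tested.

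Receptors of the ligands were also read in these carcinoma cells. SIRPA, the receptor of CD47, had 659.6 to 808.7 counts in every library (log2 fold change 0.08, SE 0.08, edgeR adjusted p = 0.42). PDCD1, the gene of PD-1, had 1 count in FOXD2 replicate 2 and 0 elsewhere, and TIGIT had at most 3 counts. KLRK1, the gene of NKG2D, had 3 and 5 counts in FOXD2 libraries and 14.7 and 19.4 counts in empty vector libraries (log2 fold change -2.10, SE 0.55, edgeR adjusted p = 0.0011). Its posterior SD reached 31% of its count. CD226 had 16 to 21 counts in every library. KLRK1 and PRF1 were both lower in FOXD2 cells, but KLRK1 had fewer than 10 counts in both FOXD2 libraries. It passed the count filter through the empty vector libraries alone, so its call is partly set by that filter. Which cells the reads of KLRK1 and PRF1 came from was not tested.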

How the data were processed

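Polyadenylated RNA of 4 HCT116 libraries was sequenced (TRIzol extraction and a directional NEBNext kit, per the labels' protocols). STAR 2.7.2b, RSEM 1.2.31 and GRCh38 are named in the submitters' processing notes; the annotation release and the strand setting of counting are not given in the sources used here, so values of overlapping genes are uncertain. The authors deposited, per the file headers, expected counts per gene, which need not be whole, TPM, FPKM (not tested), transcript lengths in bases (other values) and a posterior SD of each count, used as a score of read sharing.

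Expected counts were rounded and fitted with edgeR 4.0.16 in R 4.3.3 (TMM, filterByExpr, robust quasi-likelihood test, group alone, two-sided) over all 14470 genes that passed, with Benjamini-Hochberg adjustment at 0.05. SE is the fold change over the root of the F statistic; CPM uses TMM-scaled library sizes. Alternatives were DESeq2 1.42.0, limma 3.58.1, other scalings and filters, TPM with pseudocounts of 1 and 0.1, left-out libraries and a replicate block. Symbols were matched for 60370 of 60683 identifiers, and coordinates are GENCODE 29. The fit was tested on simulated data in which a small share of genes changed, each by more than any member did in the main edgeR fit. That setting does not test it for small differences or for changes in many genes. Replicates differed beyond sampling noise (chi-square per degree of freedom 3.91 in FOXD2 and 2.52 in empty vector).

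Members, lists and tests were chosen with earlier results of these data known. Named by rule were all members, 7 fixed genes, and called list genes averaging at least 1 CPM by size of change, up to 15 and at least 2 per list where available. A gene of the regulator lists is counted in them but not reported here.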

Additional observations from a re-analysis of the deposited data

How the results depend on the processing

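In all 15 other settings 2 to 4 members were called higher and 1 lower, and NECTIN2, ULBP2 and CD276 held their direction and call in each. CD274 was lost in 3 of them, as given in the report, and its log2 fold change ranged from 0.73 to 1.501. CD47 ranged from -0.094 (without FOXD2 replicate 2) to 0.13 (without FOXD2 replicate 1) with 1 library left out, and MICA from 0.0036 (without empty vector replicate 2) to 0.41 (without empty vector replicate 1). The sum of MICA and MICB, in which MICB has most of the counts, stood at -0.10, against 0.19 for MICA alone. Other ligands called higher numbered 6 with DESeq2 and 7 with at least 1 CPM required in 2 libraries, against 10. Those called lower numbered 2 with limma on either TPM scale, against 4. With either TPM scale 10 genes of the regulator lists were lower, against 21. Over all genes limma on log2(TPM + 1) and log2(TPM + 0.1) called 2424 and 2415 lower, against 3816. Leaving out 1 library at a time, with the remaining library of that group taken to have the spread of the other, gave 7 to 10 other ligands higher and 2 to 4 lower, the fewest lower (2) without empty vector replicate 2. The causes were not tested. The median log2 fold change of all genes was at most 0.07 under any scaling. With the replicate number as a block, 3 members were higher and 1 lower, 19 regulators were lower, and 3680 and 3494 genes were higher and lower. Same-numbered libraries did not deviate together (correlation -0.10), so the numbers are not taken as pairs. Depth limits CD274 (23 to 54 counts) and RAET1G (4.0 to 10.1 counts) most.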
